A study of Mus musculus with 8 samples.

Results

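The proteasome genes described here are those whose platform symbol starts with Psm, a letter from a to g and a digit, taken from probe sets with a single symbol. The rule found 49 of 18193 named genes, of which 47 encode proteasome subunits, assembly factors or regulators. The other 2, Psmc3ip and Psme3ip1, fit the pattern but were not counted as proteasome genes. Where a gene had several probe sets, the one that was brightest on average over the 8 arrays stood for it. The activator gene Psme2 is not among them, because its probe set carries a further symbol, Psme2b.

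The samples came from spleens of 4 mice that had acute myeloid leukaemia driven by the fusion gene MLL-AF10. From each mouse, cells high in the receptor c-kit (the CD117pos fraction) and cells negative for it (CD117neg) were sorted, and each fraction gave 1 array. Both fractions share the rest: per the labels, c-kit+ bone marrow stem and progenitor cells were immortalised by a retrovirus and transplanted into sub-lethally irradiated, syngeneic CD57BL/6 mice (spelled as in the labels). The age of the mice, the promoter that drove the fusion and the number of separate transductions are not given here, and a spleen fraction can still hold host cells. Mice are called by the last figures of the array titles, _948, _951, _952 and _953, and values of several mice are given in that order. Kit, the sorted marker, had intensities of 599 to 909 in the CD117pos arrays and of 15.7 to 39.2 in the CD117neg arrays, which fits the labels and is no finding.

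The proteasome is the protease that degrades proteins marked with ubiquitin. Its core particle is a barrel of alpha rings, which gate the entry, and beta rings, which hold the proteolytic sites. A regulatory particle of a base, with a ring of ATPases that unfold substrates, and a lid, which removes ubiquitin, caps the barrel. In cells of the immune system, and elsewhere under interferon gamma, the catalytic beta subunits Psmb6, Psmb7 and Psmb5 are replaced in new particles by the immune subunits Psmb9, Psmb10 and Psmb8, which favours peptides that class I MHC molecules can present. The comparison of the fractions asks which of these transcripts set c-kit-high leukaemia cells, known in mouse MLL leukaemias to be richer in disease-starting cells, apart from c-kit-negative cells of the same spleen.

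Values are deposited intensities on a linear scale, tested as log2(intensity + 16). Differences are CD117pos minus CD117neg on that log2 scale, with the SE of a limma fit that held the mouse as a block, and Benjamini-Hochberg adjustment of p ran over all 18193 genes. A gene is said to have risen or fallen where this adjusted p was under 0.05. Array medians lay between 27.5 and 31.1 in CD117pos arrays and between 31.1 and 32.8 in CD117neg arrays. The CD117pos array of mouse _951 correlated with the other CD117pos arrays at 0.928 to 0.930, while the other arrays reached 0.983 to 0.988 with an array of their own fraction. Values without it, or without that mouse, are given where they change a call or move a named difference clearly. In RNA from sorted populations, fewer cells of a type and less RNA per cell cannot be told apart.

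Most proteasome transcripts differed little between the fractions. The genes that passed included 3 of 4 core assembly chaperones, which rose, and 2 of 3 activators, which fell. The third activator, Psme3, was higher without passing. After quantile normalisation Psme3 rose (0.58; limma, adjusted p = 0.0307), and neither activator fall passed after quantile normalisation or centring. Of the 47 proteasome genes, 5 rose (Psmg1, Psmg2, Psmg3, Psmb7 and Psmb2) and 3 fell (Psma7, Psme1 and Psme4), which is 10.6% and 6.38% of them. Over all genes tested, 8.27% rose and 13.8% fell, 22.1% together, so the share of rises was near the background and that of falls below it. The median log2 difference of the 47 genes was 0.10, against -0.01 over all genes tested, and it was 0.13, 0.05, 0.12 and 0.16 in the 4 mice. Of the 47 genes, 40 (85.1%) differed by less than 0.5 in either direction, against 69.9% of all genes. The CD117pos and CD117neg intensities did not overlap for 7 proteasome genes that were higher and 4 that were lower, against 10.4% and 17.3% of all genes.

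**Figure D1:**
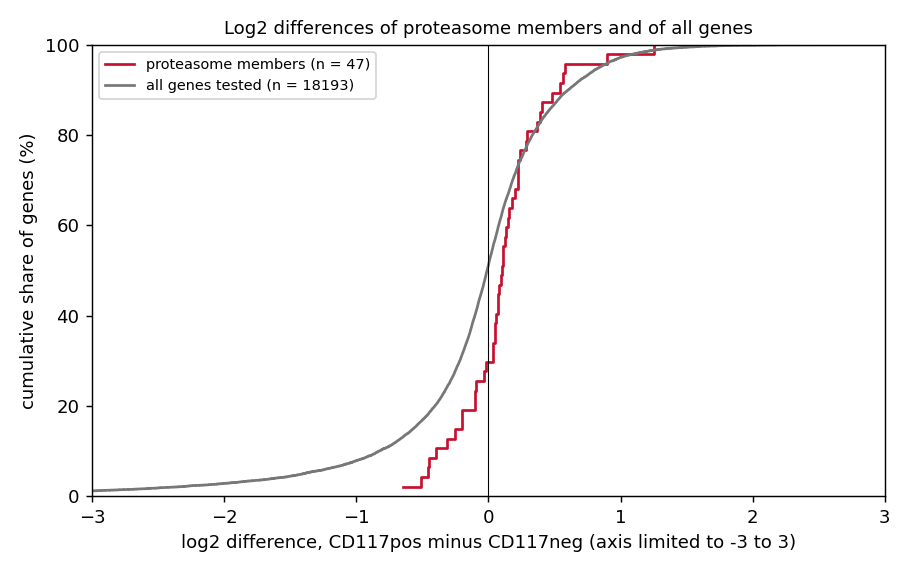
Cumulative share of genes (%) against the log2 difference, CD117pos minus CD117neg, for the 47 proteasome genes and for the 18193 genes tested. The proteasome curve is the steeper around 0 and reaches its median at 0.10, against -0.01 for all genes.

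The count of rises depended on scaling. After quantile normalisation 12 of 47 rose (25.5%), against 13.3% of all genes, and 0 fell, against 10.7%. After centring each array on its median 8 rose (17.0%), against 10.7% of all genes, and 0 fell, against 11.5% (limma; 0 and 5 lower genes at an unadjusted p under 0.05 in these settings). The share of rises was thus nearer to the background with the deposited scaling than with either of these, while Psmg1, Psmg2, Psmg3, Psmb7 and Psmb2 rose under both. With the block dropped and the _951 CD117pos array left out, 11 rose (23.4%), against 11.9% of all genes, and 6 fell (12.8%), against 16.3%.

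Of the core assembly chaperones, 3 of 4 rose. Psmg1 and Psmg2 encode partners in a heterodimer that scaffolds the alpha ring, and Psmg3 and Psmg4 encode the partners of another that acts on the same ring. Psmg1 had intensities of 1183, 1231, 941 and 1230 in CD117pos cells, against 415, 549, 449 and 474 in CD117neg cells. Every CD117pos array was thus above every CD117neg array. The log2 difference was 1.25 ± 0.13 (limma, adjusted p = 0.00285), a fold of 2.38. Psmg2 had intensities of 887, 1166, 956 and 1009 in CD117pos cells, against 454, 580, 582 and 510 in CD117neg cells. These groups did not overlap either, and the log2 difference was 0.90 ± 0.11 (limma, adjusted p = 0.00554). A further probe set of Psmg2 differed by 1.23 ± 0.13. Psmg1 and Psmg2 rose under each of the 14 alternative settings run, with adjusted p of at most 0.0278 and 0.0423.

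Psmg3 had intensities of 500, 515, 452 and 414 in CD117pos cells, against 282, 288, 304 and 368 in CD117neg cells. The groups did not overlap, with the smallest gap in mouse _953. The log2 difference was 0.58 ± 0.15 (limma, adjusted p = 0.0454), a call that ended without any of the 4 mice (adjusted p of 0.0551 to 0.18) and when its probe sets were averaged (0.31). Psmg4 had intensities of 315, 239, 233 and 235 in CD117pos cells, against 272, 224, 261 and 176 in CD117neg cells. Its groups overlapped, and the difference was 0.13 ± 0.13 (limma, adjusted p = 0.55, 95% interval -0.20 to 0.46).

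**Figure D2:**
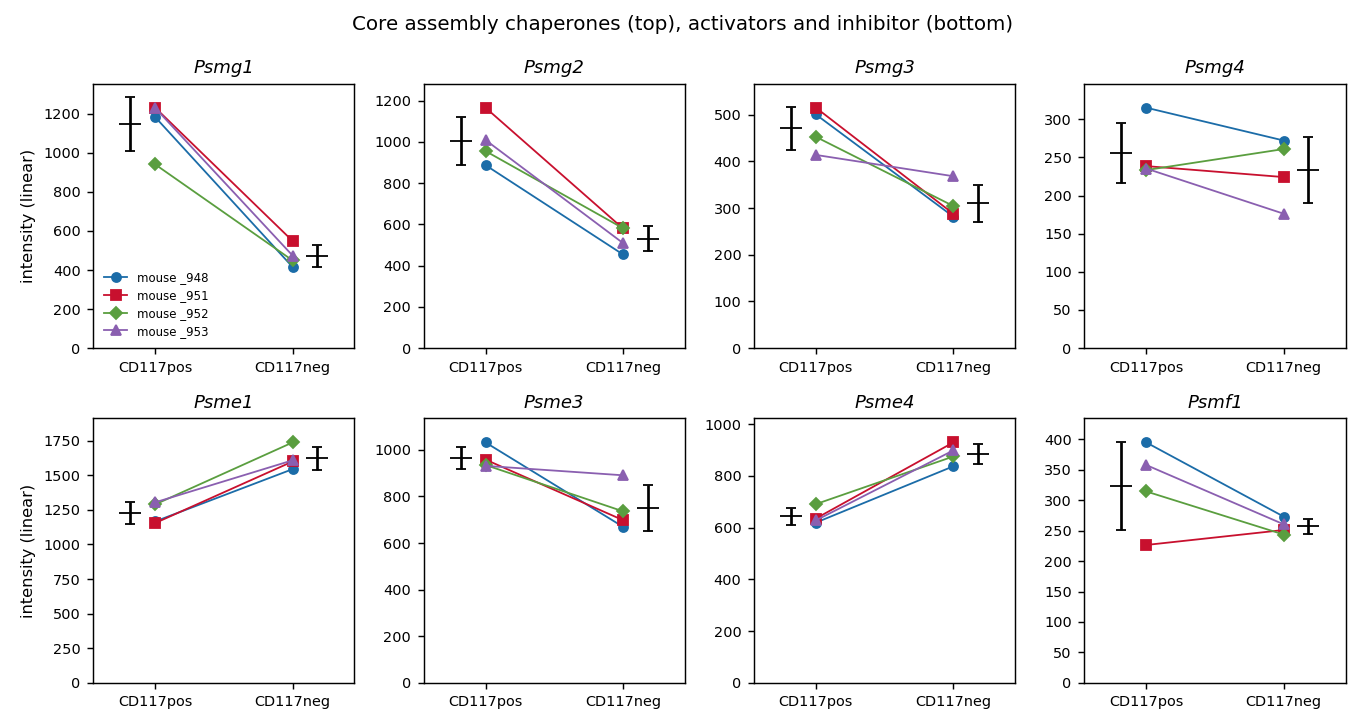
Intensity (linear scale, from 0) of the core assembly chaperone genes (top) and of the activator and inhibitor genes (bottom) in the CD117pos (left) and CD117neg (right) array of each mouse, joined by a line per mouse, with mean and SD beside them (n = 4). Psmg1 lies at 941 to 1231 in CD117pos and at 415 to 549 in CD117neg arrays, and Psme4 at 619 to 691 in CD117pos and at 837 to 929 in CD117neg arrays.

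The constitutive and the immune catalytic subunits went opposite ways in 3 of 4 mice. The mean log2 difference of Psmb5, Psmb6 and Psmb7 was 0.30 ± 0.09 (SD, n = 4 mice), and that of Psmb8, Psmb9 and Psmb10 was -0.37 ± 0.47. Constitutive minus immune was 0.69, 0.02, 0.82 and 1.11 in the 4 mice, with a mean of 0.66 ± 0.46 (SD). No p-value is given for it, because it is a score over chosen genes. The small value belongs to mouse _951, in which the immune subunits differed by 0.31, against -0.72 to -0.43 in the other mice. The constitutive mean was positive in every mouse, 0.19 to 0.40.

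Psmb7 encodes the subunit with the trypsin-like site. It had intensities of 2011, 1541, 1805 and 2218 in CD117pos cells, against 1327, 1111, 1454 and 1282 in CD117neg cells. Every CD117pos array exceeded every CD117neg array, and the log2 difference was 0.54 ± 0.13 (limma, adjusted p = 0.0333). The call ended without mouse _948 (0.138), _952 (0.0784) or _953 (0.128) and with a pseudocount of 1 (0.0778). Psmb6, which carries the caspase-like site, had 2183, 1868, 1879 and 1962 in CD117pos cells, against 1903, 1442, 1637 and 1702 in CD117neg cells. It was higher in all 4 mice by 0.24 ± 0.11, which did not pass (limma, adjusted p = 0.182) but did with a pseudocount of 64 (0.048) and after quantile normalisation (0.0313). Psmb5, which carries the chymotrypsin-like site that proteasome inhibitors such as bortezomib block, had 2869, 2918, 2894 and 3329 in CD117pos cells, against 2879, 2598, 2755 and 2876 in CD117neg cells. Its groups overlapped, and the difference was 0.11 ± 0.11 (limma, adjusted p = 0.54, 95% interval -0.16 to 0.38).

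Psmb10, the immune counterpart of Psmb7, had intensities of 1081, 1539, 1015 and 877 in CD117pos cells, against 1691, 1534, 1881 and 1849 in CD117neg cells. Mouse _951 had like values in both fractions, and the other 3 mice were lower in CD117pos. The log2 difference over 4 mice was -0.64 ± 0.20 and missed the threshold (limma, adjusted p = 0.0725), but it passed without the mouse as a block (0.0308). Psmb8, the counterpart of Psmb5, had 708, 1018, 543 and 613 in CD117pos cells, against 892, 818, 773 and 880 in CD117neg cells, a difference of -0.26 ± 0.17 (limma, adjusted p = 0.369). Psmb9, the counterpart of Psmb6, had 732, 1914, 785 and 700 in CD117pos cells, against 920, 1239, 1125 and 1052 in CD117neg cells, a difference of -0.20 ± 0.23 (limma, adjusted p = 0.601). For both, mouse _951 was the only mouse with the CD117pos array above its CD117neg array.

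Without mouse _951, all 3 immune subunits fell. Psmb10 then differed by -0.86 (limma, adjusted p = 0.00818), Psmb8 by -0.44 (0.0363) and Psmb9 by -0.47 (0.0344), and constitutive minus immune was 0.88. After quantile normalisation of all 8 arrays, Psmb8 differed by -0.04, Psmb9 by 0.02, with its sign turned, and Psmb10 by -0.43, none past the threshold. Leaving out only the CD117pos array of that mouse, in a fit without the block, gave -0.80, -0.43 and -0.54, all past the threshold. Within an array, the log2 ratio of a constitutive gene to its immune counterpart in CD117pos minus that in CD117neg averaged 1.18 ± 0.57 for Psmb7 over Psmb10, 0.44 ± 0.47 for Psmb6 over Psmb9 and 0.37 ± 0.38 for Psmb5 over Psmb8 (SD, n = 4 mice). The ratio of Psmb7 to Psmb10 was higher in CD117pos in every mouse (1.23, 0.46, 1.19 and 1.85).

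**Figure D3:**
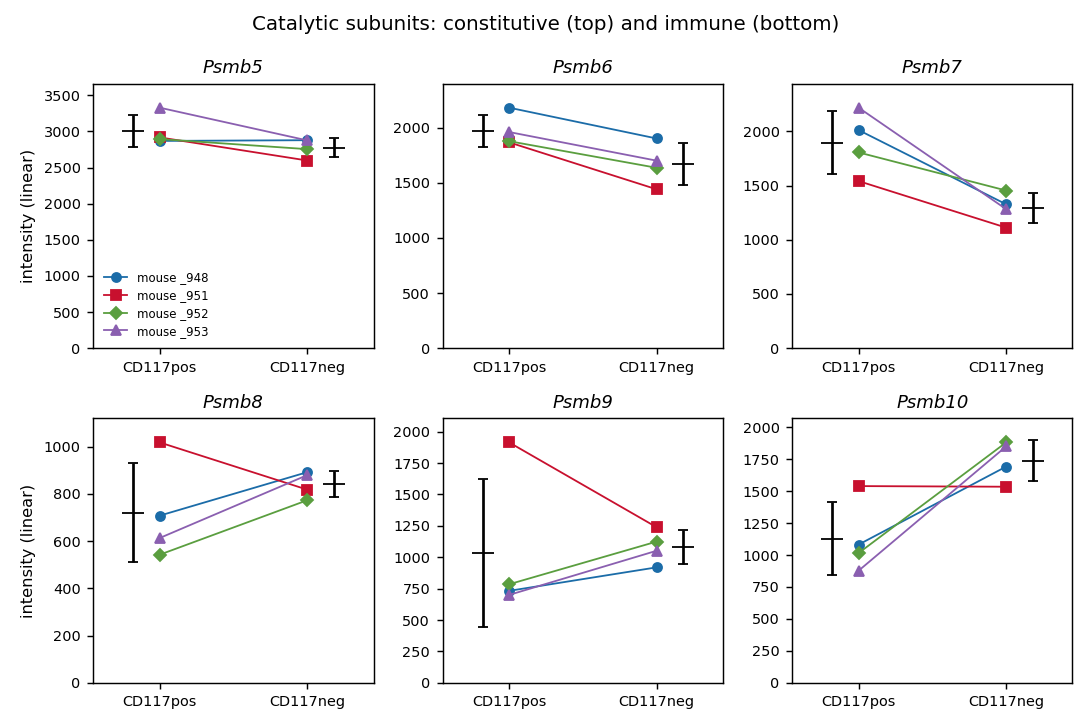
Intensity (linear scale, from 0) of the constitutive (top) and immune (bottom) catalytic subunit genes in the CD117pos (left) and CD117neg (right) array of each mouse, joined by a line per mouse, with mean and SD beside them (n = 4). Psmb9 of mouse _951 stands at 1914 in CD117pos, against 700 to 785 in the other CD117pos arrays.

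The 250 bases before the annotated start of these genes are shown because the constitutive and immune genes are known to answer to different signals. Sequences are from RefSeq on GRCm38.p6, written 5′ to 3′ in the direction of the gene, and those of Psmg1 and Psme1, a gene that rose and a gene that fell, follow for comparison. Capitals mark matches to any of 5 motifs, searched on both strands: the CCAAT box (CCAAT), the core of the antioxidant response element that Nfe2l1 and Nfe2l2 bind (TGACNNNGC), the E-box bound by Myc (CACGTG), a core of the interferon-stimulated response element and a core of the gamma-activated site (TTCNNNGAA). Psmg1 was chosen after its values were seen.
Psmb5 (chr14:54617996-54618245, minus strand): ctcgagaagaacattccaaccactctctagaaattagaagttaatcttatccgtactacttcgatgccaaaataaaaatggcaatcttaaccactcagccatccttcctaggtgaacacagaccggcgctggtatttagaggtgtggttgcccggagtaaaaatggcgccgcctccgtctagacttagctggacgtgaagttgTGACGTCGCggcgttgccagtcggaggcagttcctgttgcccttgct
Psmb6 (chr11:70525107-70525356, plus strand): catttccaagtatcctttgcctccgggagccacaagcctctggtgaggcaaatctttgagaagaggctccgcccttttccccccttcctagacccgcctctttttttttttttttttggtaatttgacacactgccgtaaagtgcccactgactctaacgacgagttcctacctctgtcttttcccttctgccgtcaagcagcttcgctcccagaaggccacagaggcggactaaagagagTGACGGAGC
Psmb8 (chr17:34197945-34198194, plus strand): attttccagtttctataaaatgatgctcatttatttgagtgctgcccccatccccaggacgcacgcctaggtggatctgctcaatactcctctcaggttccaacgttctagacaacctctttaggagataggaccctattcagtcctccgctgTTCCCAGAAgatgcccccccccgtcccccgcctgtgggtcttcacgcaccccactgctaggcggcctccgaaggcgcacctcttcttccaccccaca
Psmb9 (chr17:34187331-34187580, minus strand): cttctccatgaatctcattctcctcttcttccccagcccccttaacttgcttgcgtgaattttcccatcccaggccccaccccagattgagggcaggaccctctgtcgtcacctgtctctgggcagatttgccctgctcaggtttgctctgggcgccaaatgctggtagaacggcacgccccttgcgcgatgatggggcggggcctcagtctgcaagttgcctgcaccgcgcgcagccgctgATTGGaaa
Psmb10 (chr8:105938393-105938642, minus strand): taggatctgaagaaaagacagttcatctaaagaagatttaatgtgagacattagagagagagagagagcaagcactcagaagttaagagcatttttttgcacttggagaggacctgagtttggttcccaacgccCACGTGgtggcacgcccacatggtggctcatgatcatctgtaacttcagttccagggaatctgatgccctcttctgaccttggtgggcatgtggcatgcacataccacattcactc
Psme1 (chr14:55578244-55578493, plus strand): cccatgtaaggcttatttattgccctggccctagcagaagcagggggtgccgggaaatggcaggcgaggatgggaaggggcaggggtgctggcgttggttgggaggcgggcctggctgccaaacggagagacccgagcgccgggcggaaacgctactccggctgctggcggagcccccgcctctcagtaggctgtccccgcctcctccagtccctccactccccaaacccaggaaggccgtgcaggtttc
Psmg1 (chr16:95990961-95991210, minus strand): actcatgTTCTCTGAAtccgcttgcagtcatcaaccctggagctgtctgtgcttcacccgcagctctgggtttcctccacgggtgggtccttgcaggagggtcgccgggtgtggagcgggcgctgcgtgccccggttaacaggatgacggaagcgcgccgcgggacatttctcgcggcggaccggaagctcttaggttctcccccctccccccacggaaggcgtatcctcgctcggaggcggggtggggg

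The windows of Psmb5 and Psmb6 each held the antioxidant response element core, 47 and 9 bases before the start, and those of Psmb8, Psmb9 and Psmb10 held none. It was in 12.8% of the 39 proteasome genes with a window and in 13.5% of the 14452 tested genes with one. The gamma-activated site core was in the Psmb8 window, 97 bases before the start (5.13% of proteasome genes, 7.42% of tested genes). A CCAAT box on the opposite strand lay 8 bases before the start of Psmb9 (35.9% of proteasome genes, 39.4% of tested genes), and the Psmb10 window held an E-box (10.3% and 8.73%). The core of the interferon-stimulated response element was in none of the shown windows (7.69% and 3.13%). The window of Psme1 held no match, and that of Psmg1 held the gamma-activated site core. Shares over proteasome genes are descriptions of short windows, and a match is not a bound site. No window was available for Psma8, Psmb1, Psmb2, Psmb7, Psmc3, Psmd3, Psmd7 and Psmg2. Psmb7, the constitutive catalytic gene that rose, is thus missing from this comparison of windows.

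Of the 8 alpha ring genes, 1 fell and 0 rose (limma, with 1 at an unadjusted p under 0.05), and the median log2 difference was 0.09. The gene that fell, Psma7, had intensities of 1166, 1138, 1264 and 1185 in CD117pos cells, against 1521, 1687, 1674 and 1676 in CD117neg cells. All CD117pos arrays lay below all CD117neg arrays. The difference was -0.46 ± 0.11 (limma, adjusted p = 0.0333). The call ended after quantile normalisation (-0.25) and centring (-0.37), and without mouse _948, _952 or _953. Psma2 and Psma4 were lower in all 4 mice without passing (-0.10 ± 0.11 and -0.20 ± 0.13), and Psma5 and Psma6 higher in all 4 (0.18 ± 0.11 and 0.22 ± 0.12). Psma1 and Psma3 had overlapping groups. Psma8, whose product is made in the testis, stayed at 2.67 to 17.3 in CD117pos arrays and 5.59 to 8.79 in CD117neg arrays, below every array's median.

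Among the beta ring genes without a proteolytic site, 1 of 4 rose. Psmb2 had intensities of 1398, 1039, 1059 and 1362 in CD117pos cells, against 907, 739, 922 and 866 in CD117neg cells. The groups did not overlap, and the difference was 0.48 ± 0.13 (limma, adjusted p = 0.0466). Without each of the 4 mice in turn the call ended (adjusted p of 0.0534 to 0.182). Psmb3 and Psmb4 differed by 0.04 ± 0.11 and 0.06 ± 0.15. Psmb1 differed by -0.02 ± 0.17, or by 0.14 without mouse _951, and its CD117pos array of mouse _951 stood at 985, against 1709 to 2210 in the other CD117pos arrays. Psmb11, the thymus form of the chymotrypsin-like subunit, was at 4.54 to 6.39 in CD117pos arrays and 1 to 8.64 in CD117neg arrays, where 1 is the floor of the file.

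**Figure D4:**
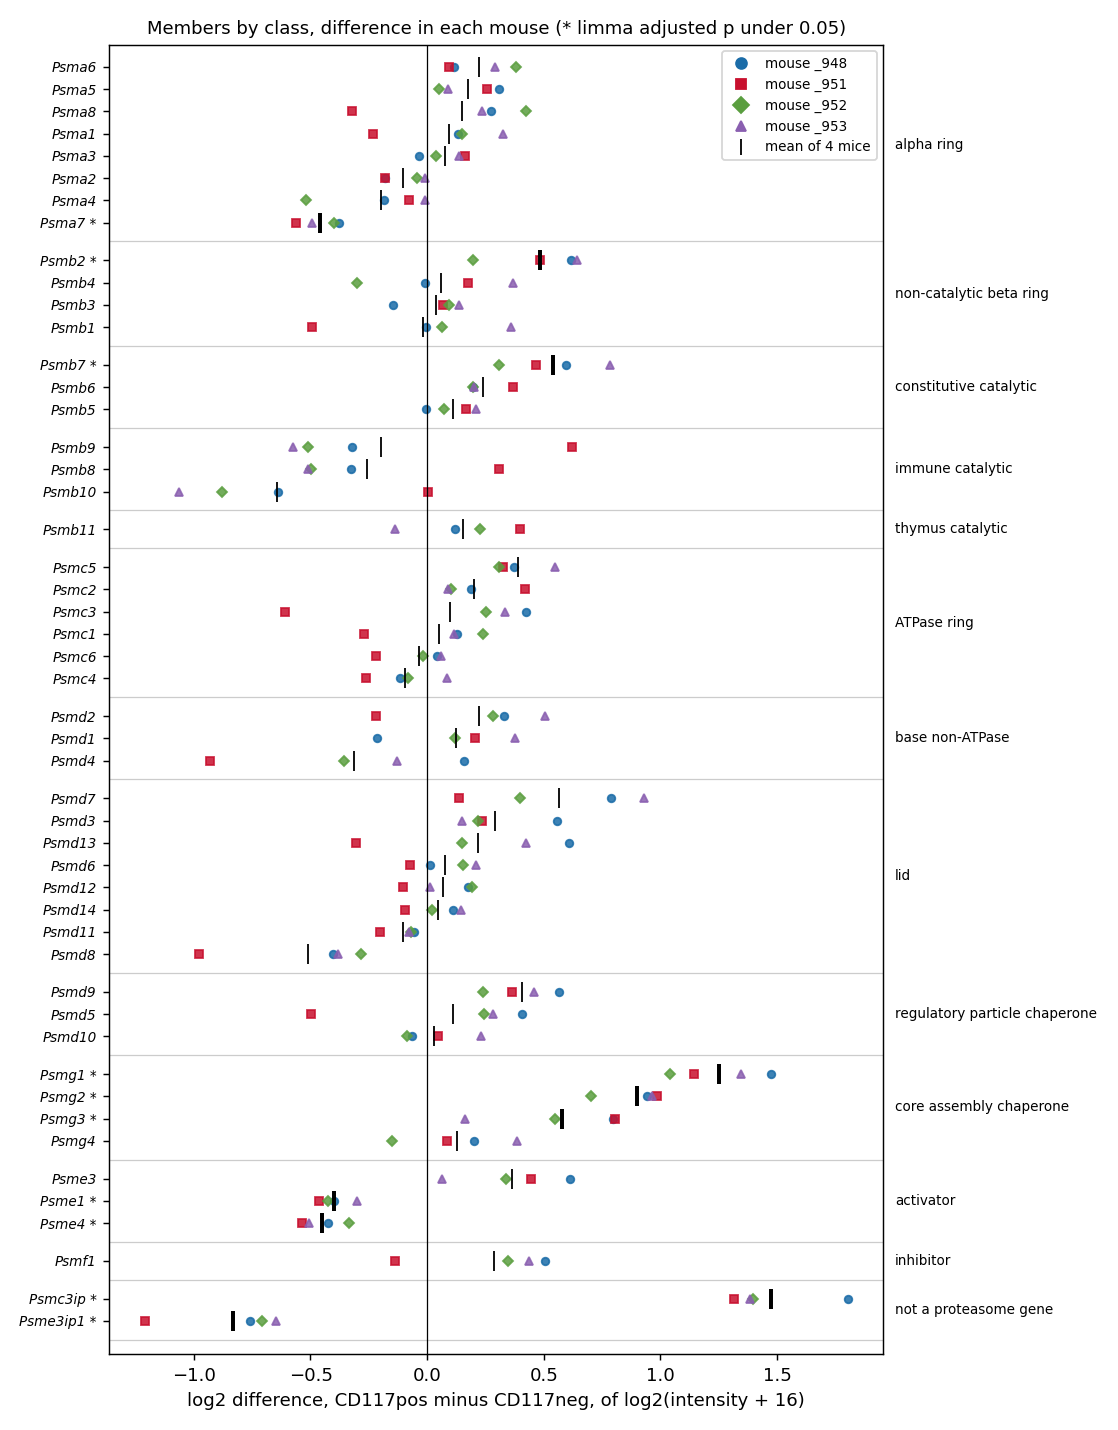
Log2 difference, CD117pos minus CD117neg, of each of the 49 genes in each mouse (coloured symbols) and their mean (bar), ordered by class. The core assembly chaperone Psmg1 lies between 1.04 and 1.48 in all 4 mice, and the red squares of mouse _951 stand apart for Psmb9 (0.62), Psmb8 (0.31) and Psmd8 (-0.98).

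No gene of the regulatory particle passed in the main fit, though some did under alternatives that kept all 8 arrays. Of 6 ATPase genes, 8 lid genes, 3 other base genes and 3 chaperone genes of this particle, 0 rose and 0 fell (limma), with 1, 2, 0 and 1 at an unadjusted p under 0.05. After quantile normalisation Psmc5, Psmd3, Psmd7 and Psmd9 rose (limma, adjusted p of 0.0133, 0.0381, 0.0233 and 0.018). Psmc5, Psmd7 and Psmd9 also rose after centring (limma, adjusted p of 0.0381, 0.0491 and 0.0376). Psmd8 fell without genes under a mean intensity of 50 (limma, adjusted p = 0.0459). With the block dropped and the _951 CD117pos array left out, Psmc5, Psmd7, Psmd9, Psmd2 and Psmd13 rose (limma, adjusted p of 0.0178, 0.00455, 0.0378, 0.0277 and 0.0311). Nearest to the threshold in the main fit were Psmc5, Psmd9, Psmd7 and Psmd8. Psmc5, an ATPase, had intensities of 1082, 856, 1067 and 1211 in CD117pos cells, against 831, 680, 859 and 822 in CD117neg cells. It was higher in all 4 mice, though its CD117pos array of mouse _951 lay just under the CD117neg array of mouse _952, with a difference of 0.39 ± 0.11 (limma, adjusted p = 0.0587). It passed under 8 of 14 alternatives, quantile normalisation (0.0133) and leaving out mouse _951 (0.0497) among them. Psmd9, a chaperone of the ATPase ring, had 311, 190, 224 and 252 in CD117pos cells, against 205, 144, 188 and 179 in CD117neg cells, a difference of 0.41 ± 0.12 (limma, adjusted p = 0.0579). Psmd9 passed under 5 of 14 alternatives.

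The lid genes Psmd7 and Psmd8 went opposite ways. Psmd7, the partner of the deubiquitinase subunit, had intensities of 512, 285, 413 and 451 in CD117pos cells, against 289, 258, 309 and 229 in CD117neg cells, a difference of 0.56 ± 0.17 (limma, adjusted p = 0.0655). Without mouse _951 it was 0.71 (limma, adjusted p = 0.0198). Psmd7 passed under 6 of 14 alternatives. With all 8 arrays these included averaging its probe sets (0.54; limma, adjusted p = 0.0308) and leaving out genes under a mean intensity of 50 (limma, adjusted p = 0.0451). Psmd8 had 588, 322, 570 and 519 in CD117pos cells, against 784, 651, 696 and 680 in CD117neg cells. Its groups did not overlap, and the difference was -0.51 ± 0.15 (limma, adjusted p = 0.0688). Mouse _951 differed most (-0.98), and without that mouse the difference was -0.36 (limma, adjusted p = 0.0623). Psmd14, the deubiquitinase itself, differed by 0.05 ± 0.11 (95% interval -0.23 to 0.32). The other 5 lid genes differed by -0.10 (Psmd11) to 0.29 (Psmd3), and Psmd3 had groups that did not overlap. Psmd13 differed by 0.22 ± 0.18, and by 0.39 without mouse _951.

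Of the other ATPase genes, Psmc2 differed by 0.20 ± 0.12, and a further probe set of it by 0.45 ± 0.11 (limma over all probe sets, adjusted p = 0.0429). Psmc1, Psmc4 and Psmc6 differed by -0.09 to 0.05. Psmc3 had intensities of 2034, 662, 2180 and 1992 in CD117pos cells, against 1514, 1017, 1830 and 1578 in CD117neg cells. Its difference was 0.10 ± 0.20 over 4 mice, and the sign was positive in all mice but _951 (-0.61). Without mouse _951 it was 0.34 (limma, adjusted p = 0.0771). In the base, the ubiquitin receptor gene Psmd4 differed by -0.31 ± 0.20, with 0.16, -0.93, -0.35 and -0.13 in the 4 mice and -0.11 without mouse _951. The scaffold genes Psmd1 and Psmd2 differed by 0.12 ± 0.14 and 0.22 ± 0.15, the second by 0.37 without mouse _951. Among chaperones of the regulatory particle, Psmd5 and Psmd10 differed by 0.11 ± 0.18 (0.31 without mouse _951) and 0.03 ± 0.12.

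Of the 3 activator genes, 2 fell and 0 rose, while 3 had an unadjusted p under 0.05 (limma). Psme1 encodes a subunit of the activator that interferon gamma induces and that opens the core particle without ATP. It had intensities of 1166, 1154, 1289 and 1304 in CD117pos cells, against 1544, 1599, 1737 and 1608 in CD117neg cells. The groups did not overlap, and the difference was -0.40 ± 0.11 (limma, adjusted p = 0.0493). This lay just inside the threshold, and the call ended under 8 of 14 alternatives, each of the 4 mice left out among them (adjusted p of 0.0542 to 0.172). Psme4 encodes a large activator known for degrading histones in testis and after DNA damage. It had intensities of 619, 635, 691 and 628 in CD117pos cells, against 837, 929, 875 and 898 in CD117neg cells. The groups did not overlap, and the difference was -0.45 ± 0.11 (limma, adjusted p = 0.0357). After quantile normalisation it was -0.24 and after centring -0.36, and neither passed. The call of Psme4 also ended under 8 of 14 alternatives, a pseudocount of 1 and leaving out mouse _948, _952 or _953 among them. The mean of its 6 probe sets differed by -0.21.

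Psme3 encodes the nuclear activator that promotes cell proliferation. It had intensities of 1032, 958, 935 and 931 in CD117pos cells, against 670, 699, 736 and 891 in CD117neg cells. The groups did not overlap, yet the difference of 0.36 ± 0.13 did not pass (limma, adjusted p = 0.114). It did pass after quantile normalisation, at 0.58 (limma, adjusted p = 0.0307). A dimmer probe set of the gene differed by 0.94 ± 0.13 (limma over all probe sets, adjusted p = 0.00797), and the dimmest by -0.25 ± 0.14. Psmf1, which encodes an inhibitor of the core particle, had 395, 227, 315 and 358 in CD117pos cells, against 273, 251, 244 and 260 in CD117neg cells. It was higher in all mice but _951, with a difference of 0.29 ± 0.15 (limma, adjusted p = 0.239), and of 0.43 without mouse _951 (adjusted p = 0.0375).

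The 2 genes that fit the pattern but were not counted as proteasome genes both passed. Psmc3ip encodes a factor of meiotic recombination. It had intensities of 577, 547, 693 and 577 in CD117pos cells, against 154, 210, 254 and 211 in CD117neg cells. The groups did not overlap, and the difference of 1.48 ± 0.13 (limma, adjusted p = 0.00221) exceeded that of every proteasome gene. Psme3ip1 encodes a protein that binds the Psme3 activator. It had 1423, 1092, 1382 and 1422 in CD117pos cells, against 2419, 2550, 2268 and 2236 in CD117neg cells, a difference of -0.83 ± 0.14 (limma, adjusted p = 0.0119). The call of Psme3ip1 ended without mouse _948, _952 or _953.

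The CD117pos array of mouse _951 was often the extreme one. For 29 of the 47 proteasome genes (61.7%) its CD117pos array was the lowest of the 4, against 39.0% of all genes, and for 7 (14.9%) the highest, against 31.2%. The 7 were Psmb8, Psmb9, Psmb10, Psmc2, Psmg1, Psmg2 and Psmg3. Of the 8 lid genes 7 had their lowest CD117pos value there, and of the 6 ATPase genes 5. The mouse terms of the fit passed for 0 of the 47 genes, with 1 at an unadjusted p under 0.05 (moderated F-test of limma), as for 0 of all genes (1386, or 7.62%, at an unadjusted p under 0.05).

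**Figure D5:**
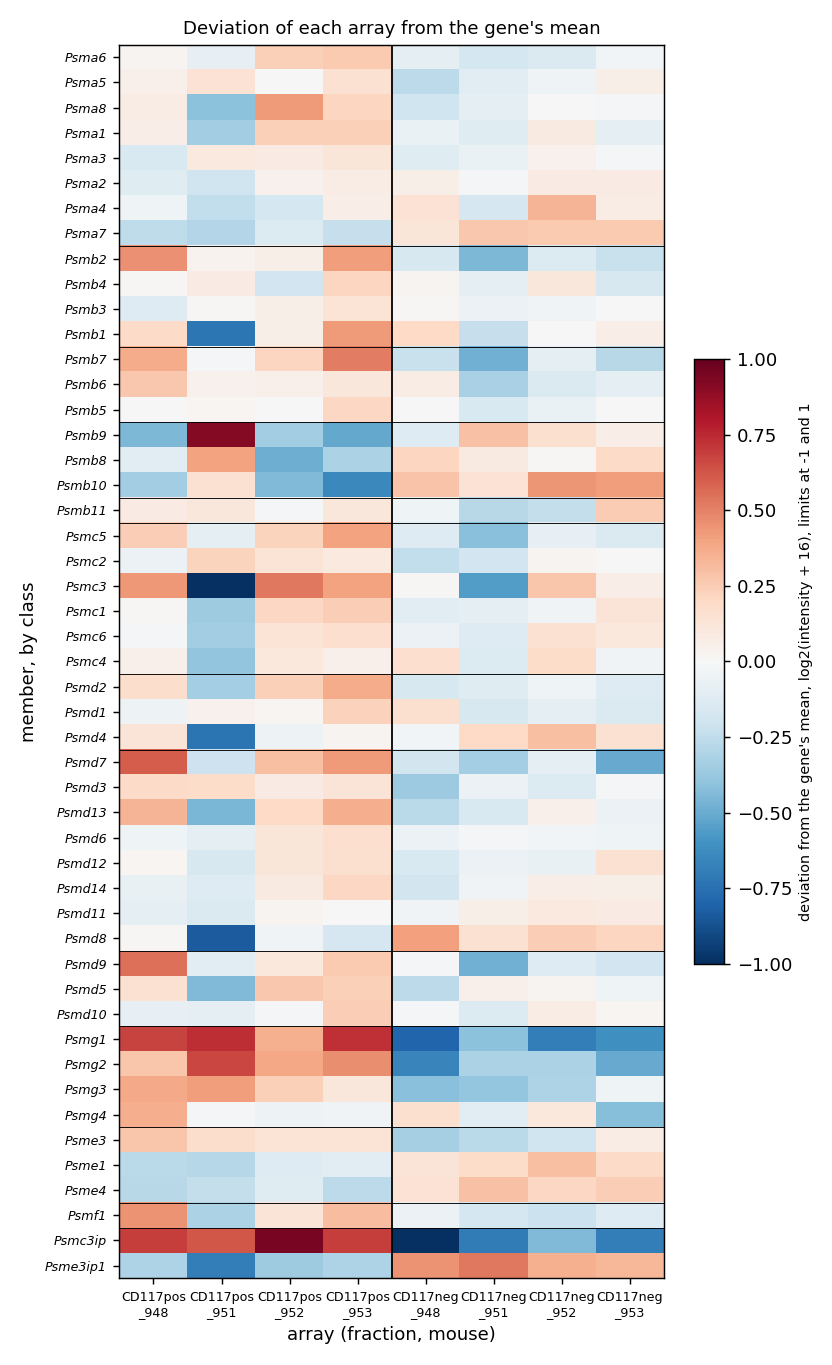
Deviation of each array from the gene's mean over 8 arrays, as log2(intensity + 16), for the 49 genes (rows, by class) in CD117pos (left) and CD117neg (right) arrays, with colours limited at -1 and 1. The column CD117pos _951 is blue for Psmc3, Psmb1, Psmd4 and Psmd8 and red for Psmb8, Psmb9 and Psmb10.

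Several probe sets were present for 27 of the 49 genes, 103 probe sets in all, and for no gene did some probe sets rise and others fall. Tested over all 34945 probe sets with 1 symbol, 9 probe sets of these genes rose and 3 fell, against 6.89% and 12.1% of all probe sets. In that test Psmb2 and Psme1 no longer passed (adjusted p = 0.0515 and 0.0567).

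Further parts of the pathway were read from lists chosen by role. Of 6 measured genes of other proteasome parts and assembly, 0 rose and 1 fell, with a median of -0.11. Zfand5, a proteasome activator studied in muscle wasting, averaged 1501 ± 274 in CD117pos cells and 3069 ± 213 in CD117neg cells (SD, n = 4), a difference of -1.04 ± 0.14 (limma, adjusted p = 0.00619). Pomp, the maturation protein that works with the Psmg chaperones, averaged 1727 ± 68.3 in CD117pos cells and 2049 ± 83.1 in CD117neg cells, and its difference of -0.24 ± 0.11 did not pass (limma, adjusted p = 0.167). Of 7 genes of ubiquitin supply and receptors, 3 rose and 0 fell, with a median of 0.37. Ubqln4, a shuttle for ubiquitinated proteins, averaged 372 ± 15.1 in CD117pos cells and 212 ± 14.9 in CD117neg cells (difference 0.77 ± 0.10; limma, adjusted p = 0.00655). Usp14 and Uchl5, deubiquitinases of the proteasome, rose by 0.70 ± 0.18 and 0.50 ± 0.12, calls that each ended without mouse _948, _952 or _953, and that of Usp14 also without the mouse as a block (limma, adjusted p = 0.0598). Of 8 genes of the Vcp segregase and its partners, 0 rose and 0 fell (limma, 1 at an unadjusted p under 0.05), and Vcp differed by -0.01 ± 0.12.

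Of 7 measured regulators of proteasome genes, 0 rose and 2 fell (limma, 4 at an unadjusted p under 0.05). The falls numbered 1 without mouse _948, _952 or _953, and without mouse _951 Nrf1 and Nfyb, chosen after their values were seen, rose. The symbol Nrf1 stands here for a gene other than Nfe2l1. Nfe2l1, the factor that raises proteasome genes when proteasomes are inhibited, averaged 168 ± 52.3 in CD117pos cells and 200.3 ± 11.8 in CD117neg cells, a difference of -0.28 ± 0.22 (limma, adjusted p = 0.432) that was -0.03 without mouse _951. Nfe2l2, the factor of the oxidative stress response, averaged 826 ± 139 in CD117pos cells and 1583 ± 148 in CD117neg cells, a difference of -0.93 ± 0.12 (limma, adjusted p = 0.00507). Nfyc, a subunit of the CCAAT-binding factor, differed by -0.56 ± 0.13 and did not pass with a pseudocount of 1, after centring or quantile normalisation, or without mouse _948, _952 or _953.

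Genes of interferon signalling were mostly lower in CD117pos cells, and those of class I presentation went both ways. Of 11 genes of interferon signalling to them, 9 fell and 0 rose, with a median of -1.10. Irf8, a myeloid transcription factor, averaged 261 ± 192 in CD117pos cells and 3078 ± 375 in CD117neg cells, a difference of -3.74 ± 0.36 (limma, adjusted p = 0.00263). Jak2 differed by -1.67 ± 0.20 and Ifngr2, a chain of the interferon gamma receptor, by -1.49 ± 0.20. Irf1, which switches on the immune subunit genes, had 592, 1063, 654 and 749 in CD117pos cells, against 1908, 2505, 1861 and 2275 in CD117neg cells. Its difference was -1.49 ± 0.12 (limma, adjusted p = 0.00188), and its highest CD117pos value was that of mouse _951. Among the 11 genes, that mouse had the lowest CD117pos value for 6 and the highest for 2. Over all genes tested it had the lowest for 39.0% and the highest for 31.2%.

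Of 12 measured genes of class I presentation, 4 fell and 1 rose, with a median of -0.32. The falls numbered 1 without mouse _948, 2 without _952, 3 without _953 and 6 without _951. Erap1, which trims peptides for class I molecules, rose by 0.51 ± 0.11 (limma, adjusted p = 0.0234), a call that ended without mouse _948, _952 or _953 and with a pseudocount of 1. The chaperone genes Pdia3 and Calr had CD117pos arrays all above the CD117neg arrays without passing (0.50 ± 0.14 and 0.22 ± 0.10). With the block dropped and the _951 CD117pos array left out, Pdia3 passed (0.50; limma, adjusted p = 0.0241). Nlrc5, the transactivator of class I genes, had 9.09, 186, 16.7 and 13.6 in CD117pos cells, against 59.7, 220.1, 137 and 116 in CD117neg cells, a difference of -1.55 ± 0.35 (limma, adjusted p = 0.0298). Mouse _951 again had the highest CD117pos value, and the call ended without the mouse as a block (limma, adjusted p = 0.134) and without mouse _948, _952 or _953. The heavy chain genes H2-D1 and H2-K1 averaged 2739 ± 574 and 2303 ± 563 in CD117pos cells, against 5259 ± 414 and 4382 ± 514 in CD117neg cells, differences of -0.96 ± 0.15 and -0.95 ± 0.13, and the call of H2-D1 ended without mouse _948 (limma, adjusted p = 0.0512). Both were read from probe sets of shared sequence (ending in _x_at), so their values may not be separate. Without such probe sets H2-D1 fell by -1.25 (limma, adjusted p = 0.0037), and H2-K1 could not be tested. B2m had 2879, 5538, 3393 and 3597 in CD117pos cells, against 5355, 5978, 6135 and 5442 in CD117neg cells, and did not pass (limma, adjusted p = 0.0514). Without mouse _951 B2m fell, by -0.78 (limma, adjusted p = 0.00858). The peptide transporter gene Tap1 had 253, 631, 324 and 307 in CD117pos cells, against 320, 615, 503 and 518 in CD117neg cells. Its difference of -0.41 ± 0.16 did not pass (limma, adjusted p = 0.14), but that of -0.55 without mouse _951 did (limma, adjusted p = 0.0297). The CD117pos array of mouse _951 was the highest CD117pos array for 6 of the 12 genes and the lowest for 2. Over all genes tested it was the highest for 31.2% and the lowest for 39.0%.

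Markers of other cells of the spleen were read beside the immune subunits, which lymphocytes also make. Summed over 5 measured T cell markers, intensities were 51.2 to 557 in CD117pos arrays and 103 to 138 in CD117neg arrays. The highest sum was that of CD117pos mouse _951 and came from Cd8a at 537, while Cd3d and Cd3e were at 1 and 4.96 there. The sums over 4 B cell markers were 119 to 258 in CD117pos arrays and 224 to 318 in CD117neg arrays, and those over 4 NK cell markers 48.9 to 81.3 in CD117pos arrays and 61.6 to 67.1 in CD117neg arrays. Mature myeloid markers differed widely. The sums over 4 monocyte and macrophage markers were 728 to 3929 in CD117pos arrays and 12160 to 14240 in CD117neg arrays, and over 6 neutrophil markers 8150 to 16680 in CD117pos arrays and 33560 to 38330 in CD117neg arrays. The lowest CD117pos sums for B cells, monocytes and macrophages, and neutrophils were all those of mouse _951. The part of these markers in the proteasome results was not tested. Of 5 genes of myeloid leukaemia identity, Kit and the granule genes Elane and Mpo rose. Elane averaged 5416 ± 773 in CD117pos cells and 1009.5 ± 411 in CD117neg cells, and Mpo 8583 ± 1656 in CD117pos cells and 1868 ± 461 in CD117neg cells (SD, n = 4). Hoxa9 (-0.02 ± 0.10) and Meis1 (-0.21 ± 0.11) did not pass.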

How the data were processed

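Per the labels' protocols, polyA RNA was amplified in 2 cycles, labelled with biotin and hybridised to 1-colour Affymetrix arrays. The deposited values are an intensity on a linear scale for 45101 probe sets, with a floor at 1. The summarising software and scaling are not stated there. Depth does not apply to arrays, and their number limits precision. Of the probe sets, 34945 had 1 gene symbol in the platform annotation, 64 controls left out, which gave 18193 genes. The 10092 others were not named here.

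Intensities were used as deposited, as log2(intensity + 16), which understates changes of low genes, and no detection filter was set. limma 3.58.1 in R 4.3.3 (lmFit, eBayes) tested fraction with the mouse as a block over 8 arrays, and was tested on simulated data. Blocking is taken from the series' design, where both fractions came out of every mouse. Deviations from the fraction means correlated within mice at 0.206, 0.223, 0.271 and 0.12 across genes, against at most 0.109 between mice. Figures used matplotlib 3.10.9 in Python 3.11.15.

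The rule named the 6 catalytic subunits, members past the threshold (at most 5 a class, else the one that differed most), and the 3 genes per list that differed most among those past it. Other members, Irf1, Erap1, B2m, Tap1, Pomp, Vcp, Nfe2l1, Pdia3, Calr, Nrf1, Nfyb, Cd8a and markers were added after their values were seen. Members and lists were chosen with earlier results of these data known. Alternatives covered the pseudocount, scaling, low genes, probe set choice, block, trend, and leaving out each mouse or the CD117pos array of mouse _951. Probe sets of shared sequence were taken by name only, as those ending in _s_at, _x_at or _a_at. Whether their signal is shared with other genes was not tested.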

Additional observations from a re-analysis of the deposited data

Results flagged for a closer look

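Within each fraction, an array was singled out where its gap to the nearest of the other 3 arrays exceeded Dixon's critical share of the group's range on the log2 scale. Of 98 groups of 4 arrays examined, 9 had such an array. Chance gives about 1 in 20 for independent groups of normally distributed values. The groups here share the same arrays and are not independent, so the count cannot be judged against that rate. The CD117pos array of mouse _951 accounted for 4 of the 9. It stood at 1914 for Psmb9 (the other CD117pos arrays 700.2 to 785), at 662 for Psmc3 (others 1992 to 2180), at 950.3 for Psmc4 (others 1302 to 1349.8) and at 1092 for Psme3ip1 (others 1382 to 1423).

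Among the other CD117pos arrays, mouse _948 stood at 4028 for Psma3 (others 4737 to 4878) and at 315 for Psmg4 (others 233 to 239). Mouse _952 stood at 941 for Psmg1 (others 1183 to 1231), and mouse _953 at 3329 for Psmb5 (others 2869 to 2918). Among CD117neg arrays, mouse _948 stood at 1521 for Psma7 (others 1674 to 1687).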

How the results depend on the processing

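Of 678 values of single members under alternatives, 599 kept their direction where called and their side of the threshold, 42 lost a call and 37 gained one. No called value reversed. The 5 rises and 3 falls among the 47 proteasome genes became 2 and 0 with a pseudocount of 1, 12 and 0 after quantile normalisation, 8 and 0 after centring, and 5 and 0 of 41 genes without probe sets of shared sequence. At an unadjusted p under 0.05, limma gave 5, 0, 5 and 4 lower genes in these settings. Over all genes, 5.45% rose and 10.3% fell with a pseudocount of 1, and 7.76% and 12.8% without probe sets of shared sequence. There were 8 rises with a pseudocount of 64 (17.0%, against 9.47% of all genes). Without genes under a mean intensity of 50, 8 of 45 rose (17.8%, against 17.2%), which is the background share. Leaving out a mouse gave 2 to 6 rises (2.29% to 11.6% of all genes) and 0 to 5 falls (6.49% to 16.4%). Leaving out only the CD117pos array of mouse _951 gave 11 and 6. Of these, leaving out mouse _948, _952 or _953 each gave 2 rises and 0 falls (4 falls each at an unadjusted p under 0.05), with fewer arrays in the fit. The median log2 difference of the 47 genes, 0.10, was 0.29 after quantile normalisation, 0.19 after centring (all genes 0.065 and 0.083) and 0.15 for the 41 genes left without probe sets of shared sequence, 0.045 to 0.13 without a mouse and 0.16 without the array. Constitutive minus immune, 0.66, was 0.51 to 0.88 without a mouse and 0.93 without the array, and could not be fitted without probe sets of shared sequence, which left no probe set of Psmb5 and Psmb8. The Psmb5 probe set and the brighter Psmb8 probe set were left out for the ending _a_at. Without the mouse as a block, 5 genes rose and 4 fell, with Psmb10 added, and constitutive minus immune was again 0.66. All genes higher numbered 1504, against 992 with a pseudocount of 1, 2420 after quantile normalisation 416 to 2106 without a mouse and 2159 without the array. All genes lower numbered 2511, against 1181 to 2983 without a mouse and 2964 without the array. Higher genes made up 37.5% of calls, 55.4% after quantile normalisation and 48.2% after centring. The causes of these shifts were not tested. Psma8 and Psmb11 lay near the floor of the file, which limits what their differences can show.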
